A study of Mus musculus with 6 samples.

Results

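Transforming growth factor beta (TGF-beta) is secreted in a latent form, held shut by its own propeptide, and must be activated before it can signal. On regulatory T cells the propeptide is carried at the surface by GARP, the product of Lrrc32, and the integrin of the alpha-v and beta-8 chains activates the latent cytokine. Active TGF-beta binds the type II receptor, which recruits and phosphorylates the type I receptor, which in turn phosphorylates Smad2 and Smad3. In CD4 T cells this signal can induce Foxp3, the factor that defines regulatory T cells, and it restrains inflammatory effector programmes.

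The genes described here are 10 components of this pathway: the ligand Tgfb1, the activators Itgb8 and Lrrc32, the receptors Tgfbr1, Tgfbr2 and Tgfbr3, the transducer Smad3, and the inhibitors Smad7, Ski and Tgif1. They were chosen by name, and every probe set that the platform annotation assigns to 1 of them alone was read. Of the 10, 9 had an annotated probe set, out of 18194 genes with such a probe set on the array, and they held 19 probe sets together. No probe set is assigned to Lrrc32 in the annotation used, so it has no value here. Of the 19 probe sets, 13 passed the filter on low values and at least 1 passed for each of the 9 genes. The other 6, of Tgfbr1, Tgfbr2, Tgfbr3 and Smad3, read between 3.11 and 5.37 on all arrays, below the filter level of 5.48, and were not tested.

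Affymetrix Mouse430_2 arrays measured 3 populations of CD4 T cells, with 2 arrays each. All came from Rag1-deficient BALB/c hosts, which make no T or B cells of their own, 125 days after transfer of wild-type nTreg cells together with 500000 wild-type iTreg cells. ex-iTreg cells carried the Thy1.1 mark of the transferred iTreg cells and no longer expressed the Foxp3EGFP reporter, iTreg cells were positive for both, and nTreg cells were EGFP-positive without Thy1.1. Spleen and mesenteric lymph node cells of 14 hosts were pooled, and each array is 1 replicate pool. The labels leave unsaid whether both pools of a group came from separate mice, so the p-values speak only for pool-to-pool spread, possibly a technical one. iTreg cells are regulatory cells made in culture, for which TGF-beta is the usual inducer, and nTreg cells arise in the thymus.

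Values are log2 expression as deposited, on the scale of the authors' RMA, which tends to understate large folds. The 2 arrays of a group correlated with r of 0.996 to 0.997 across 23484 probe sets, against 0.956 to 0.979 between groups. Of 10 Treg identity genes, 9 could be tested, and all 9 fell in ex-iTreg arrays relative to nTreg arrays (median difference -3.22, against 0.03 over all genes tested). In that comparison 19% of all genes tested fell. Foxp3 read between 3.99 and 4.29 on all arrays, below the filter level, so the array could not check the label of the sort. Mean log2 signal of 27 poly-A spike-in probe sets was 8.81 and 8.94 on ex-iTreg arrays, 11.37 and 11.35 on iTreg arrays and 10.03 and 10.12 on nTreg arrays. The spike-in signal thus differed far more between groups than within them. A difference in RNA handling between groups cannot be told apart from a difference between populations, also in the small differences below. The arrays measure RNA of whole pools, so fewer cells that express a gene and less RNA of it per cell cannot be told apart.

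Markers of cells other than CD4 T cells moved with the groups. Of all genes tested 37.4% were called in ex-iTreg minus nTreg, 36.6% in ex-iTreg minus iTreg and 29.1% in iTreg minus nTreg. Of 12 tested myeloid markers, 6 rose and 0 fell in ex-iTreg minus nTreg, 0 rose and 11 fell in ex-iTreg minus iTreg, and 10 rose and 0 fell in iTreg minus nTreg (median 1.01). Their summed linear signal, in arbitrary units, was 8130 to 8297 in ex-iTreg, 11878 to 12464 in iTreg and 8366 to 8427 in nTreg arrays, and Itgam stayed below the filter level. The myeloid markers were thus highest in iTreg arrays. Of 7 tested B cell markers, 0 rose and 3 fell in ex-iTreg minus nTreg, 0 rose and 6 fell in ex-iTreg minus iTreg, and 3 rose and 2 fell in iTreg minus nTreg. Their sum was 4267 to 4296 in ex-iTreg, 7441 to 7532 in iTreg and 6905 to 6946 in nTreg arrays, with Cd79a and Pax5 below the filter level. The summed B cell signal was thus lowest in ex-iTreg arrays. Against nTreg arrays 4 of the 7 markers were not called, and Cd74, H2-Aa and Jchain were not lower in ex-iTreg arrays (0.03, 0.12 and 0.10). All 3 tested erythroid markers fell in ex-iTreg minus iTreg and rose in iTreg minus nTreg, and their sum was 415 to 472 in ex-iTreg, 700 to 714 in iTreg and 453 to 466 in nTreg arrays, with Hba-a1 below the filter level. The smallest adjusted p of 4 tested platelet markers over the 3 comparisons was 0.0901 (limma), with sums of 440 to 475 in ex-iTreg, 402 to 422 in iTreg and 372 to 432 in nTreg arrays, and Pf4, Ppbp and Gp6 below the filter level. Myeloid cells and platelets also express Tgfb1. The part of these cell types in the results that follow was not tested.

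Differences are in log2 units ± SE (limma, n = 2 arrays in each group), and p-values are adjusted by Benjamini-Hochberg over 23484 probe sets with a threshold of 0.05. Each gene is represented by its tested probe set with the highest mean. The 3 comparisons share groups and are not independent of each other.

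The first comparison asks how cells that had lost the reporter differed from nTreg cells. In ex-iTreg arrays Itgb8, Tgfbr1, Tgfb1, Smad3 and Tgif1 were lower than in nTreg arrays, and the other receptors, Tgfbr2 and Tgfbr3, were higher. That is 7 of the 9 genes past limma's threshold, 2 that rose and 5 that fell. Of 11019 genes tested 37.4% passed, 18.4% that rose and 19% that fell. The median absolute difference of the 9 genes was 0.61, against 0.19 over all genes. Of the 7, 3 differed at least 2-fold (Itgb8, Tgfbr1 and Tgfbr3), as did 5.83% of all genes.

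Against iTreg cells, with which they share their origin, ex-iTreg cells again had less Itgb8, Tgfbr1, Smad3 and, on its brighter probe set only, Tgfb1 RNA. They had more of Tgfbr2, Tgfbr3, Smad7, Tgif1 and, on its brighter probe set only, Ski. All 9 genes passed limma's threshold, 5 that rose and 4 that fell. Of all genes tested 36.6% passed, 15.6% that rose and 21% that fell. A change of at least 2-fold was called in 3 of the 9 genes (Itgb8, Tgfbr1 and Tgfbr3), and in 3.54% of all genes. The calls of Tgfb1, Smad3, Ski and Tgif1 were not stable: 5 genes passed without ex-iTreg pool 1, without ex-iTreg pool 2 or without iTreg pool 1. Itgb8, the 3 receptors and Smad7 passed whichever of the 6 arrays was left out.

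Between the populations that kept the reporter, iTreg arrays had less Itgb8, Tgfbr1 and Tgif1 RNA than nTreg arrays and more Tgfbr3. With Smad3 and Smad7, both slightly lower, 6 of 9 genes passed limma's threshold, 1 that rose and 5 that fell. Of all genes tested 29.1% passed, 16.4% that rose and 12.7% that fell. A change of at least 2-fold was called in 2 of the 9 genes (Itgb8 and Tgfbr3), and in 2.26% of all genes. Without any single array only 4 passed, and Smad3 and Smad7 were the calls lost.

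**Figure D1:**
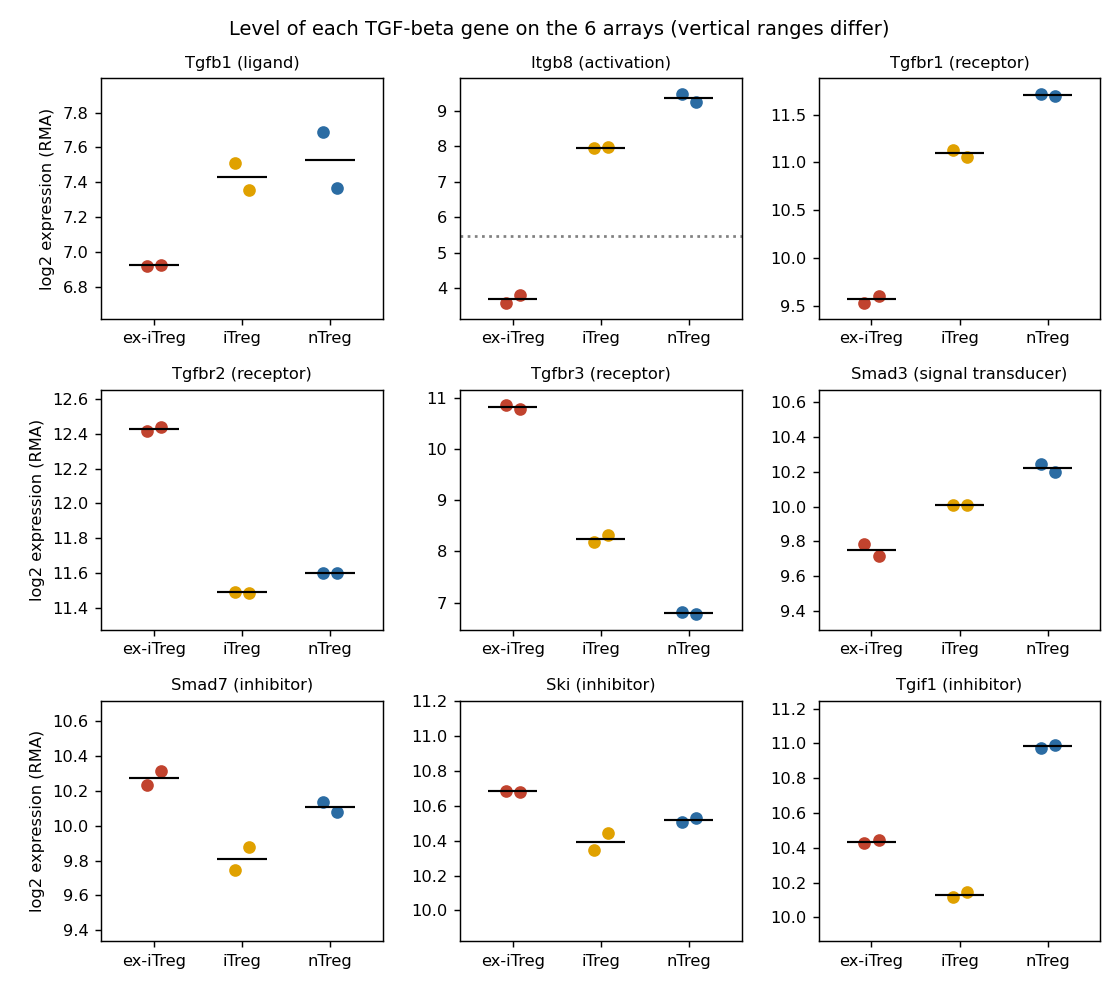
Log2 expression (vertical axis, with a different range in each panel) of the 9 measured genes in ex-iTreg, iTreg and nTreg arrays. Each dot is 1 array, bars are group means of 2 arrays, and the dotted line in the Itgb8 panel is the filter level of 5.48. Itgb8 lies under that line in both ex-iTreg arrays, Tgfbr1 is lowest and Tgfbr2 and Tgfbr3 are highest there.

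Tgfb1 encodes the main TGF-beta ligand of the immune system. It read 6.92 on both ex-iTreg arrays, 7.51 and 7.36 on iTreg arrays and 7.69 and 7.36 on nTreg arrays. Both ex-iTreg arrays lay below every other array, while iTreg and nTreg arrays overlapped. The difference was -0.61 ± 0.12 in ex-iTreg minus nTreg (adjusted p = 0.00869, limma) and -0.51 ± 0.12 in ex-iTreg minus iTreg (adjusted p = 0.0166, limma). Without ex-iTreg pool 1 these calls were lost (adjusted p = 0.0505 and 0.0769, limma), and the second was also lost without ex-iTreg pool 2 or iTreg pool 1 (up to 0.085).

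The dimmer Tgfb1 probe set placed the step elsewhere. Of all 23484 probe sets tested, 36.4% were called in ex-iTreg minus nTreg, 37% in ex-iTreg minus iTreg and 29.1% in iTreg minus nTreg. It read 6.26 and 6.03 on ex-iTreg arrays, 6.21 and 6.33 on iTreg arrays and 6.64 and 6.81 on nTreg arrays. By this probe set Tgfb1 was lower in iTreg than in nTreg arrays (-0.45 ± 0.11, adjusted p = 0.0229, limma), and ex-iTreg minus iTreg was -0.13 (adjusted p = 0.389, limma). On both probe sets ex-iTreg arrays were lower than nTreg arrays, at -0.58 on the dimmer one (adjusted p = 0.00696, limma).

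Itgb8, on chromosome 12, encodes the beta-8 chain, which pairs only with alpha-v and lets regulatory T cells activate latent TGF-beta. Its single probe set read 3.59 and 3.81 on ex-iTreg arrays, 7.95 and 7.96 on iTreg arrays and 9.46 and 9.24 on nTreg arrays. The 3 groups did not overlap, and the ex-iTreg level lay under the filter level, where RMA values do not resolve RNA from background. Both comparisons passed the test, against nTreg and against iTreg arrays (adjusted p = 1.13e-06 and 6.32e-06, limma), and the size of the fall is not given because the ex-iTreg level is not resolved from background. iTreg arrays were 2.63-fold lower than nTreg arrays (-1.40 ± 0.10, adjusted p = 0.000443, limma).

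The alpha-v partner, Itgav, moved the same way. It averaged 9.74 in ex-iTreg, 10.45 in iTreg and 11.19 in nTreg arrays. The difference was -1.45 ± 0.08 in ex-iTreg minus nTreg and -0.74 ± 0.08 in iTreg minus nTreg (adjusted p = 4.65e-05 and 0.00153, limma). Its 3 tested probe sets differed by between -1.95 and -0.61 in ex-iTreg minus nTreg, and all 3 passed. In ex-iTreg minus iTreg 2 of the 3 passed (-0.71 and -0.40) and the remaining one differed by -0.06 (adjusted p = 0.616, limma).

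The 3 receptors moved in opposite directions on loss of the reporter. Tgfbr1, on chromosome 4, encodes the type I receptor kinase, the chain that phosphorylates Smad2 and Smad3. It read 9.53 and 9.60 on ex-iTreg arrays, 11.13 and 11.06 on iTreg arrays and 11.72 and 11.70 on nTreg arrays. The 3 groups did not overlap. ex-iTreg arrays were 4.41-fold lower than nTreg arrays (-2.14 ± 0.07) and 2.88-fold lower than iTreg arrays (-1.53 ± 0.07; adjusted p = 5.29e-06 and 3.81e-05, limma). iTreg arrays were 1.53-fold lower than nTreg arrays (-0.61 ± 0.07, adjusted p = 0.00164, limma). The other 2 Tgfbr1 probe sets stayed below the filter level, at 4.02 to 4.54 on ex-iTreg arrays, 4.29 to 5.17 on iTreg arrays and 4.24 to 5.10 on nTreg arrays.

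Tgfbr2, on chromosome 9, encodes the type II receptor, which binds the ligand first. It read 12.42 and 12.44 on ex-iTreg arrays, 11.49 on both iTreg arrays and 11.60 on both nTreg arrays. Both ex-iTreg arrays lay above all others, and the iTreg and nTreg arrays lay close together. The ex-iTreg arrays were 1.78-fold higher than nTreg arrays (0.83 ± 0.06) and 1.92-fold higher than iTreg arrays (0.94 ± 0.06; adjusted p = 0.000151 and 0.000152, limma). iTreg minus nTreg was -0.11 ± 0.06 (adjusted p = 0.223, limma), a difference that the test did not call. A dimmer probe set gave the same order, with 7.68 and 7.58 on ex-iTreg arrays, 6.76 and 6.39 on iTreg arrays and 6.98 and 6.94 on nTreg arrays, and both ex-iTreg comparisons passed on it too (0.67 and 1.06).

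Tgfbr3, on chromosome 5, encodes betaglycan, a co-receptor without kinase activity that presents ligand to the type II receptor and can also be shed. It read 10.86 and 10.79 on ex-iTreg arrays, 8.18 and 8.32 on iTreg arrays and 6.82 and 6.77 on nTreg arrays. The order was the reverse of Tgfbr1, with no overlap between groups. ex-iTreg arrays were 16.3-fold higher than nTreg arrays (4.03 ± 0.08) and 5.95-fold higher than iTreg arrays (2.57 ± 0.08; adjusted p = 1.13e-06 and 1.01e-05, limma). iTreg arrays were 2.74-fold higher than nTreg arrays (1.45 ± 0.08, adjusted p = 0.000142, limma). A second Tgfbr3 probe set read between 4.53 and 4.97 on all arrays, under the filter level, so the rise rests on 1 probe set.

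In humans betaglycan RNA is also found in cytotoxic lymphocytes, and most of 6 tested CD8 T and NK cell markers were higher in ex-iTreg arrays too. Of these 6, 5 rose and 1 fell in ex-iTreg relative to iTreg arrays, beside 15.6% and 21% of all genes tested. Against nTreg arrays 4 rose and 1 fell, beside 18.4% and 19% of all genes tested. Cytotoxic genes outside this list were split. Gzmb, granzyme B, fell in ex-iTreg arrays (-1.50 against iTreg and -1.44 against nTreg), and Gzma fell against nTreg (-0.89). Fasl, the death ligand, rose (2.22 against iTreg and 2.56 against nTreg). Their summed linear signal was 1842 to 1844 in ex-iTreg, 633 to 661 in iTreg and 818 to 849 in nTreg arrays, in arbitrary units. Ncr1, a defining NK cell receptor, stayed below the filter level on all arrays, and Cd8b1, the CD8 beta chain, fell to 5.27 in ex-iTreg arrays, under the filter level, against 7.11 in nTreg arrays. The part of such cells in the Tgfbr3 result was not tested.

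**Figure D2:**
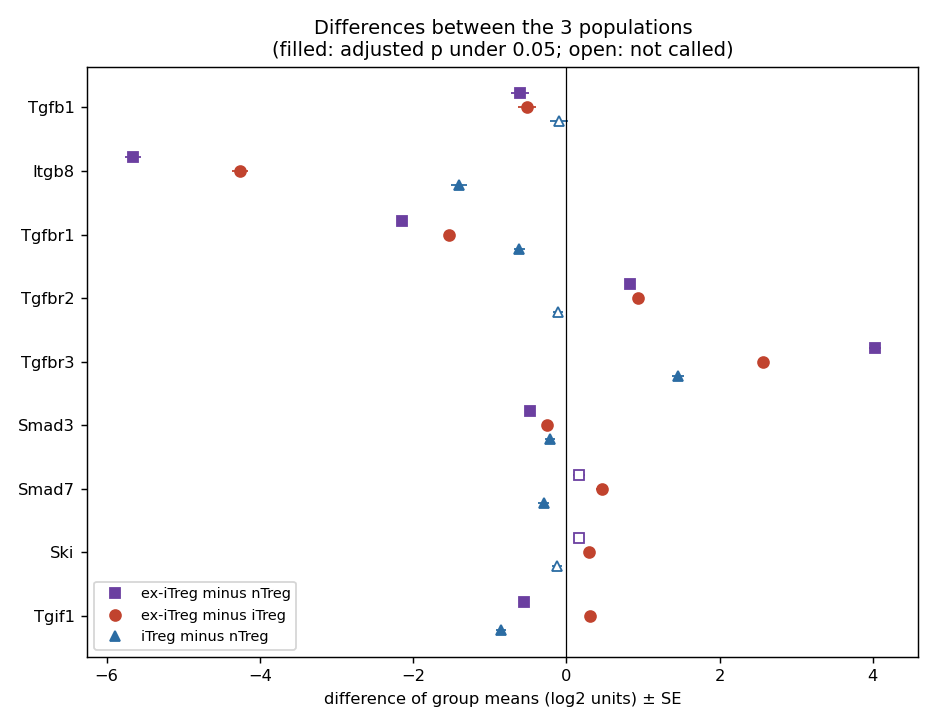
Difference of group means in log2 units (horizontal axis, ± SE from limma) for the 9 genes, in ex-iTreg minus nTreg (squares), ex-iTreg minus iTreg (circles) and iTreg minus nTreg (triangles). Filled marks passed limma's threshold. The ex-iTreg marks of Itgb8 rest on a level below the filter, so their size is not resolved. Tgfbr1 lies left of 0 and Tgfbr3 right of 0 in all 3 comparisons, and Tgfbr2 right of 0 in both ex-iTreg comparisons.

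The promoters of Itgb8 and Tgfbr1, which fell together, and of Tgfbr2, which rose, are shown because these 3 genes carry the opposed changes and have a window in RefSeq (GRCm38.p6, reference strain C57BL/6J, whereas the cells were BALB/c). Each window runs 5′ to 3′ on the strand of the gene, from 250 bases before the start to 50 after it, and capitals mark every match to 1 of 5 motifs searched on both strands: the Smad box CAGAC, the palindromic Smad element GTCTAGAC, the forkhead core TGTTTAC, the Runx core TGTGGT and the GC box GGGCGG. No matches overlapped. The Itgb8 window is chr12:119238227-119238526 on the minus strand, the Tgfbr1 window chr4:47352972-47353271 on the plus strand and the Tgfbr2 window chr9:116175314-116175613 on the minus strand.
Itgb8: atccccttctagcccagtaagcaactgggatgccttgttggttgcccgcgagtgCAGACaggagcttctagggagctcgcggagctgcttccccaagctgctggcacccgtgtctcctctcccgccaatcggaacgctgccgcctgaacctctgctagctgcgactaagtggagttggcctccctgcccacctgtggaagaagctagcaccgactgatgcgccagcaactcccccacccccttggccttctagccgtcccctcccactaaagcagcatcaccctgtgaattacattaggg
Tgfbr1: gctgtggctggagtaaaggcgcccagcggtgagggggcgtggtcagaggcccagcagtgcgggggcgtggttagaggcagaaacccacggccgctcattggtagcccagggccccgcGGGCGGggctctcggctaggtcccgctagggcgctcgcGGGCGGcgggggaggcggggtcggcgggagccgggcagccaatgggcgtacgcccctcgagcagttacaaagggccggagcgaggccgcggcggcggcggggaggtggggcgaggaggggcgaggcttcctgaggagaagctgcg
Tgfbr2: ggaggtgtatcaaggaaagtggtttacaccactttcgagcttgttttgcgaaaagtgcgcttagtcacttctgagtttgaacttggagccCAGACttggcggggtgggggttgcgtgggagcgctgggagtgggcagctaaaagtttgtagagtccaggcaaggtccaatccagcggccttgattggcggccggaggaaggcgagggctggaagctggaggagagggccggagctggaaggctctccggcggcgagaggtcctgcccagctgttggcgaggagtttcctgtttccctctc

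Itgb8 and Tgfbr2 each held 1 Smad box, at positions -196 and -160 from the start, and the first Tgfbr1 window held none but had 2 GC boxes. The GC content was 60.7% for Itgb8, 74.7% for Tgfbr1 and 59.0% for Tgfbr2. Windows were found for 7 of the 10 genes, 12 in all because Tgif1 and Tgfbr1 have several starts. Of these 12, 6 held a Smad box, where 49.6% of 32851 promoter windows did, and 6 held a GC box, where 35.7% did. The palindromic Smad element, the forkhead core and the Runx core were in 0 of the 12, and in 0.213%, 3.65% and 16.8% of all windows. A match describes letters only and shows no binding.

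Smad3, on chromosome 9, is the transcription factor phosphorylated by the type I receptor, and it acts on the Foxp3 enhancer in induced cells. Only 1 of its 3 probe sets was tested, and the Smad3 result rests on it. The others stayed below the filter level and did not show its order. Their means were 5.25 and 5.00 in ex-iTreg, 5.05 and 5.23 in iTreg and 4.92 and 5.09 in nTreg arrays. The tested probe set read 9.78 and 9.72 on ex-iTreg arrays, 10.01 on both iTreg arrays and 10.25 and 10.20 on nTreg arrays. The order was that of Tgfbr1, on a much smaller scale. The difference was -0.47 ± 0.06 in ex-iTreg minus nTreg (adjusted p = 0.002, limma), and this call held without any single array. The steps on either side of iTreg arrays were -0.26 ± 0.06 and -0.21 ± 0.06 (adjusted p = 0.0215 and 0.0483, limma). With an array of either group left out, ex-iTreg minus iTreg had adjusted p of up to 0.124, and iTreg minus nTreg between 0.0833 and 0.159 without any of the 6 arrays (limma).

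The inhibitors followed another pattern. Smad7, on chromosome 18, is induced by TGF-beta and blocks the type I receptor as feedback. It read 10.24 and 10.31 on ex-iTreg arrays, 9.74 and 9.88 on iTreg arrays and 10.14 and 10.08 on nTreg arrays. The iTreg arrays were the lowest. ex-iTreg minus iTreg was 0.46 ± 0.08 (adjusted p = 0.00478, limma), and 0.64 on the other probe set (adjusted p = 0.00213, limma). ex-iTreg minus nTreg was 0.17 ± 0.08 on the brighter probe set (adjusted p = 0.135) and 0.42 ± 0.08 on the other (adjusted p = 0.00963, limma). iTreg minus nTreg was -0.30 ± 0.08 (adjusted p = 0.0295, limma). This call was lost whichever array was left out (adjusted p from 0.0514 to 0.132) and was not made on the other probe set (-0.22, adjusted p = 0.0986, limma).

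Tgif1, on chromosome 17, is a homeodomain co-repressor that binds Smad2 and Smad3 on DNA. It read 10.43 and 10.44 on ex-iTreg arrays, 10.12 and 10.14 on iTreg arrays and 10.98 and 10.99 on nTreg arrays. The iTreg arrays were again the lowest, and the 3 groups did not overlap. Relative to nTreg arrays the difference was -0.55 ± 0.06 for ex-iTreg and -0.85 ± 0.06 for iTreg arrays (adjusted p = 0.000855 and 0.000377, limma). ex-iTreg minus iTreg was 0.31 ± 0.06 (adjusted p = 0.00973, limma), and it was lost without iTreg pool 1 or either ex-iTreg pool (adjusted p from 0.0525 to 0.0623).

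Ski, on chromosome 4, is a proto-oncoprotein that recruits co-repressors to Smad complexes. Its brighter probe set read 10.68 on both ex-iTreg arrays, 10.34 and 10.44 on iTreg arrays and 10.51 and 10.53 on nTreg arrays. Its other probe set read 9.61 and 9.65 on ex-iTreg arrays, 9.78 and 9.76 on iTreg arrays and 9.60 and 9.54 on nTreg arrays, so the iTreg arrays were lowest on the first and highest on the second. ex-iTreg minus iTreg was 0.29 ± 0.07 on the first (adjusted p = 0.0161) and -0.14 ± 0.06 on the second (adjusted p = 0.134, limma). The direction of Ski thus depended on the probe set.

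**Figure D3:**
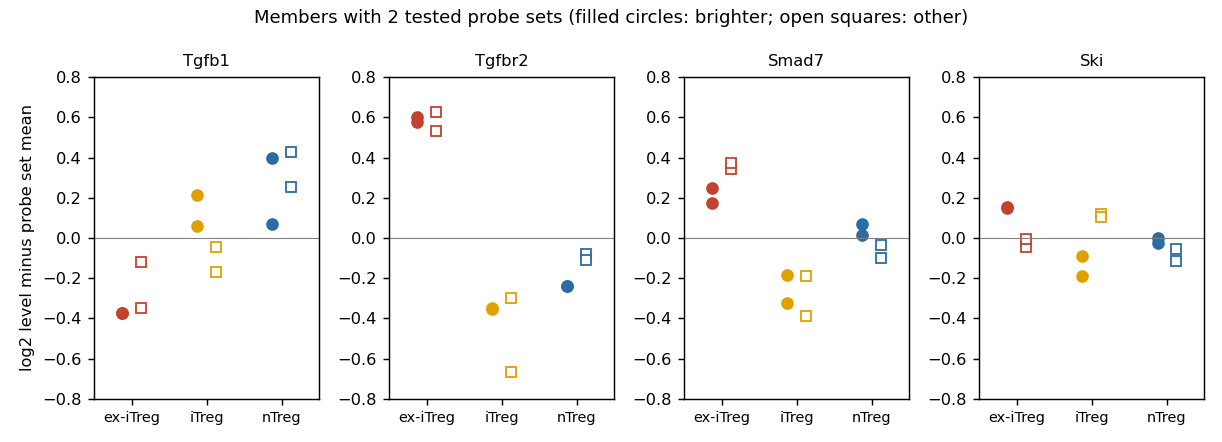
Log2 level minus the mean of the probe set (vertical axis) for the 4 genes with 2 tested probe sets, in ex-iTreg, iTreg and nTreg arrays. Each mark is 1 array, filled circles are the brighter probe set and open squares the other. The probe sets of Tgfbr2 and Smad7 rise and fall together, those of Tgfb1 differ on iTreg arrays, and those of Ski run against each other there.

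Across the 9 genes the order of the group means was nTreg, iTreg, ex-iTreg from high to low for Tgfb1, Itgb8, Tgfbr1 and Smad3. Tgfbr3 had the reverse order. Tgfbr2, Smad7 and, on its brighter probe set only, Ski were highest in ex-iTreg and lowest in iTreg arrays. Tgif1 was highest in nTreg and lowest in iTreg arrays. Neighbouring groups in these orders differed past limma's threshold for Itgb8, Tgfbr1, Tgfbr3, Smad3 and Tgif1. The neighbours that did not were iTreg and nTreg for Tgfb1, Tgfbr2 and Ski, and ex-iTreg and nTreg for Smad7 and Ski.

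The genes whose centred profile over the 6 arrays lay nearest to Tgfbr1 were Il10ra, the ligand-binding chain of the IL-10 receptor, Rin2 and Trib1. Their root mean square distances were 0.052, 0.055 and 0.062 log2 units. Nearest to Itgb8 were Tktl1, Klrg1, an inhibitory receptor of differentiated T cells, and Itih5, at 0.407, 0.439 and 0.673. In ex-iTreg arrays Itgb8, Tktl1 and Itih5 averaged 3.70, 3.96 and 5.11, under the filter level. The Itgb8 distances thus rest in part on values not resolved from background. Nearest to Tgfbr3 were Klrd1, the CD94 lectin-like receptor, Hs3st3b1, a heparan sulfate sulfotransferase, and Tdrp, at 0.242, 0.256 and 0.269. Klrd1 and Hs3st3b1 averaged 4.60 and 4.99 in nTreg arrays, also under the filter level. Because the arrays form only 3 groups, many genes have similar profiles by this measure.

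Other genes of the pathway were read in 8 lists written from general knowledge. Their counts are to be read against the share of all genes tested that passed. That share was 37.4% in ex-iTreg minus nTreg, 36.6% in ex-iTreg minus iTreg and 29.1% in iTreg minus nTreg. No list was tested against it. Among 9 further ligands and latent complex genes only 4 could be tested, and Tgfb2, Tgfb3, Ltbp1, Ltbp2 and Ltbp3 stayed near or below the filter level. The 1 gene that changed was Nrros, which anchors latent TGF-beta on myeloid cells, at -0.46 ± 0.08 in ex-iTreg minus nTreg and -0.55 ± 0.08 in ex-iTreg minus iTreg (adjusted p = 0.00459 and 0.00264, limma). Nrros moved with the myeloid markers in ex-iTreg minus iTreg, where 11 of 12 fell. It moved against them in ex-iTreg minus nTreg, where 6 of them rose and 0 fell. In iTreg minus nTreg 10 of the markers rose and Nrros was not called. The part of myeloid cells in its result was not tested.

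Of 7 tested activation and processing genes, 4 rose and 2 fell in each ex-iTreg comparison, and in iTreg minus nTreg 3 rose and 3 fell. Nrp1, a semaphorin receptor that can bind latent TGF-beta, fell with Itgav (-2.97 ± 0.13 in ex-iTreg minus nTreg and -2.46 ± 0.13 in ex-iTreg minus iTreg, adjusted p = 1.98e-05 and 7.65e-05, limma). Itgb1, the beta-1 chain, another partner of alpha-v, rose by 0.80 ± 0.08 in ex-iTreg minus iTreg (adjusted p = 0.000719, limma). Itgb3 and Itgb5, which also pair with alpha-v, rose by 0.62 and 0.67 in iTreg minus nTreg. The other Itgb5 probe set rose there too (0.24, adjusted p = 0.0365, limma), while the other Itgb3 probe set differed by -0.13. In ex-iTreg minus nTreg Itgb5 differed by 1.37 on its brighter probe set and by -0.07 on the other. In ex-iTreg minus iTreg the Itgb5 probe sets passed in opposite directions (0.70 and -0.30, adjusted p = 0.000498 and 0.0125, limma).

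Receptors of activins and bone morphogenetic proteins, relatives of TGF-beta, were also split. Of 7 tested, 2 rose and 2 fell in ex-iTreg relative to nTreg arrays. Acvr2a, an activin type II receptor, rose by 1.34 ± 0.08 and Acvr1b, an activin type I receptor, by 0.71 ± 0.07, and Bmpr2, a type II receptor of bone morphogenetic proteins, fell by 1.27 on the log2 scale (adjusted p = 7.35e-05, 0.000699 and 6.16e-05, limma). Against iTreg arrays 1 rose, Acvr2a at 0.76, and 2 fell, Bmpr2 and Bmpr1a (-0.46 and -0.42). In iTreg relative to nTreg arrays 2 rose, Acvr1b and Acvr2a (0.63 and 0.58), and 1 fell, Bmpr2 (-0.82).

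Of the other Smad genes 4 were tested, and 0 passed in ex-iTreg minus iTreg (limma). Smad1 and Smad5, which transmit signals of bone morphogenetic proteins, were higher in ex-iTreg than in nTreg arrays (0.66 ± 0.11 and 0.51 ± 0.10, adjusted p = 0.00522 and 0.00875, limma) and higher in iTreg than in nTreg arrays (0.59 and 0.51). The other Smad5 probe sets gave as little as 0.05 and 0.07 in these comparisons. In ex-iTreg minus nTreg, Smad2, which acts beside Smad3, differed by 0.16 ± 0.07 and Smad4, the common partner, by 0.09 ± 0.07 (adjusted p = 0.119 and 0.346, limma).

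Among 9 tested co-repressors and co-activators of Smad proteins, 1 rose and 4 fell in ex-iTreg minus nTreg, 3 rose and 3 fell in ex-iTreg minus iTreg, and 0 rose and 2 fell in iTreg minus nTreg. Skil, the closest relative of Ski and a feedback target of TGF-beta, rose by 0.45 ± 0.07 in ex-iTreg minus iTreg and fell by 0.53 on the log2 scale in iTreg minus nTreg (adjusted p = 0.00465 and 0.00362, limma). Its iTreg arrays were thus lowest, as for Smad7, Tgif1 and the brighter Ski probe set. Hdac1 and Sin3a, parts of co-repressor complexes, fell in ex-iTreg minus iTreg (-0.52 and -0.45) and in ex-iTreg minus nTreg (-0.48 and -0.30), as did the co-activator Ep300 (-0.34 and -0.32). Strap, a receptor-binding inhibitor, was the other gene that fell in iTreg minus nTreg (-0.37), and it rose by 0.41 in ex-iTreg minus iTreg on its brightest probe set.

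Regulators of the receptors and of Smad stability were mixed: of 16 tested, 2 rose and 5 fell in ex-iTreg minus nTreg, 4 rose and 6 fell in ex-iTreg minus iTreg, and 4 rose and 5 fell in iTreg minus nTreg. Smurf2, a ubiquitin ligase that works with Smad7 on the type I receptor, rose in ex-iTreg arrays by 0.85 ± 0.07 over nTreg and 0.81 ± 0.07 over iTreg arrays (adjusted p = 0.000314 and 0.000571, limma). Bambi, a pseudoreceptor that blocks signalling, fell by 1.11 on the log2 scale in ex-iTreg minus nTreg and by 0.90 in iTreg minus nTreg (adjusted p = 6.35e-05 and 0.000391, limma). Pmepa1, a TGF-beta target that restrains Smad2 and Smad3, fell in both ex-iTreg comparisons (-1.07 ± 0.09 against nTreg and -0.78 ± 0.09 against iTreg, adjusted p = 0.000263 and 0.00126, limma). Nedd4l, a ubiquitin ligase of activated Smad proteins, was higher in iTreg arrays than in both others, by 0.85 over nTreg, and averaged 5.66 in ex-iTreg against 6.67 in iTreg arrays (adjusted p = 0.00193, limma). Ldlrad4, an inhibitor of Smad activation, fell in iTreg minus nTreg (-0.56) and rose by 0.48 in ex-iTreg minus iTreg.

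The list of genes induced by TGF-beta shares Skil, Pmepa1 and Ldlrad4 with the lists above. Of its 12 tested genes, 2 rose and 7 fell in ex-iTreg minus nTreg (median -0.32, against 0.03 over all genes), 3 rose and 6 fell in ex-iTreg minus iTreg (median -0.24, against -0.02) and 3 rose and 7 fell in iTreg minus nTreg (median -0.30, against 0.04). Itgae, the CD103 integrin chain of tissue-resident T cells, averaged 9.19 in ex-iTreg, 12.47 in iTreg and 12.77 in nTreg arrays, and fell most in ex-iTreg minus iTreg (-3.28 ± 0.07, adjusted p = 5.38e-06, limma). Ccr9, a gut homing receptor, differed by -3.00 ± 0.08 in ex-iTreg minus nTreg and by -1.46 ± 0.08 in iTreg minus nTreg (adjusted p = 2.95e-06 and 0.000158, limma), and Rgs16, a G protein regulator, by -2.44 and -1.65. Runx1, a partner of Foxp3, rose by 1.66 in iTreg minus nTreg on its brightest probe set, while its 5 other tested probe sets differed by between -0.28 and 0.48.

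Of 15 tested T cell genes listed as repressed by TGF-beta, 9 rose and 5 fell in ex-iTreg minus nTreg (median 0.50, against 0.03 over all genes). In ex-iTreg minus iTreg 7 rose and 6 fell (median 0.21, against -0.02), and in iTreg minus nTreg 5 rose and 4 fell (median 0.06, against 0.04). Il2, the T cell growth factor, averaged 7.75 in ex-iTreg, 4.32 in iTreg and 4.46 in nTreg arrays, the last 2 below the filter level. Fasl, the death ligand, rose in ex-iTreg arrays by 2.56 ± 0.10 over nTreg and 2.22 ± 0.10 over iTreg arrays (adjusted p = 1.33e-05 and 4.39e-05, limma). Klrg1 went the other way, at -4.70 ± 0.06 in ex-iTreg minus nTreg (adjusted p = 6.77e-07, limma). In iTreg minus nTreg the named members were Prf1, perforin, which rose by 0.82, and Klrg1 and Gzma, granzyme A, which fell (-1.28 and -0.80).

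**Figure D4:**
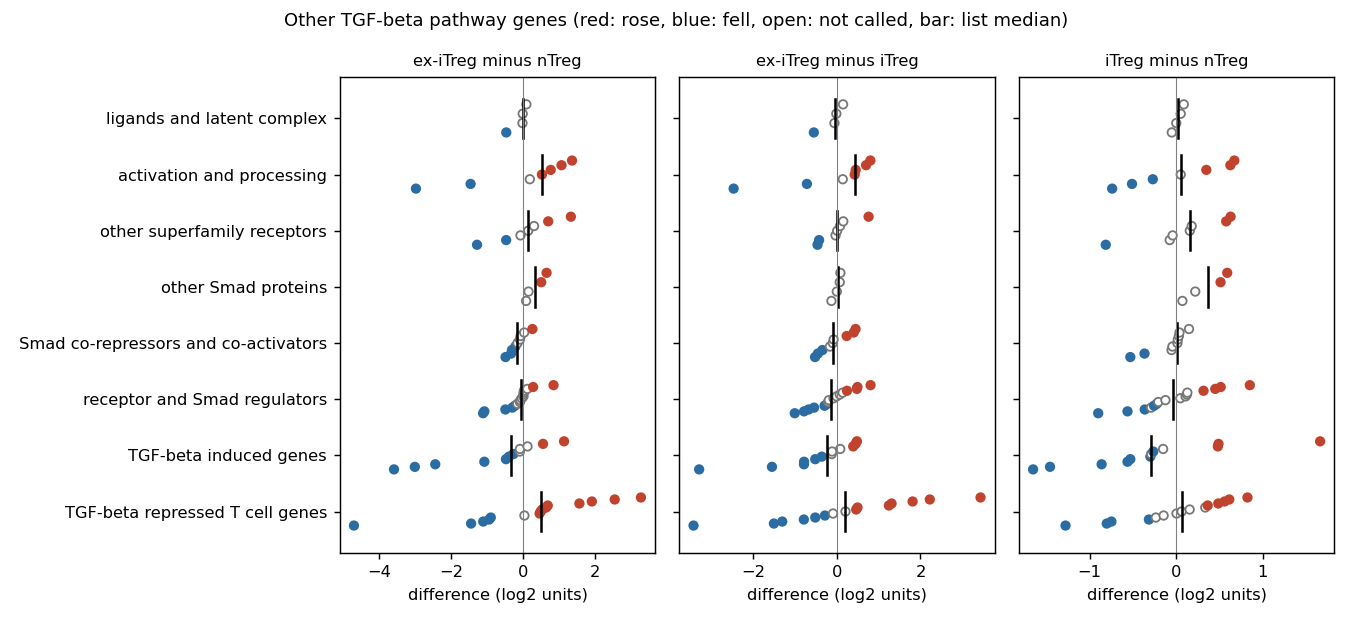
Difference in log2 units (horizontal axis, with a different range in each panel) of every tested gene in the 8 other pathway lists, in ex-iTreg minus nTreg, ex-iTreg minus iTreg and iTreg minus nTreg. Each dot is 1 gene, red dots rose and blue dots fell past limma's threshold, open dots did not pass, and black bars are list medians. Apart from Nrros the ligands lie near 0, and in the ex-iTreg minus nTreg panel the leftmost dots are Klrg1 of the repressed list (-4.70) and Itgae of the induced list (-3.58).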

How the data were processed

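Per the submitters' processing notes, the authors made the deposited log2 values with RMA, which corrects background, quantile-normalizes arrays and summarizes each probe set. For its software, the version is not given in the sources used here. The medians of the 6 arrays spanned 5.47 to 5.49. The number of arrays limits the precision.

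From these values, 64 control probe sets were left out of 45101. The platform annotation gave 1 symbol for 34945 probe sets, several for 932 and none for 9160, and 34754 were matched to RefSeq by Entrez identifier. The filter kept the 23484 probe sets that exceeded 5.48, the overall median, on 2 or more of 6 arrays. A single limma model (version 3.58.1, R 4.3.3) with a mean per group was fitted (3 residual and 3.37 prior degrees of freedom), since with 2 arrays a group the smallest two-sided p of an exact permutation is 0.333. The model was checked on simulated data with independent noise on each array. Such data cannot show whether the pools of a group came from separate mice. Named genes are the 10 members, up to 3 called genes a pathway list and comparison with the largest absolute difference, and the 3 nearest profiles of members that changed at least 2-fold. Further list genes are named where a result turns on them, after their values were seen. The members and lists were chosen with earlier results of these data known. A comparison with naive Tconv cells was not analysed here.

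The alternatives were no filter, a stricter filter (6.28), median centring, an intensity trend or robust moderation in eBayes, only the 4 arrays compared, the pool number as a block, the mean of a gene's tested probe sets, and leaving out each array.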

Additional observations from a re-analysis of the deposited data

How the results depend on the processing

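Over 14 alternatives, 336 of 378 recomputed differences of the 9 genes kept their direction and side of limma's threshold, 34 lost the call, 6 gained it and 2 changed sign without being called. The 2 were iTreg minus nTreg of Tgfb1 without nTreg pool 1 (0.068, and -0.26 without nTreg pool 2, against -0.10 with all arrays) and of Ski as the mean of its probe sets (0.036, against -0.13 on the brighter one). The counts include repeats. In each comparison, leaving out an array of the group not compared gave the same fit as only the 4 arrays compared. Itgb8, Tgfbr1 and Tgfbr3 were called in all 3 comparisons under every alternative run, as was Tgfbr2 in both ex-iTreg comparisons. Of the 34 lost calls, 26 came from leaving out an array, which also leaves fewer arrays in the fit. Without 1 array, 5 to 9 genes were called in ex-iTreg minus iTreg, 6 to 7 in ex-iTreg minus nTreg and 4 to 4 in iTreg minus nTreg. Over all probe sets the counts without 1 array were 4971 to 9104 in ex-iTreg minus iTreg (8694 with all arrays), 5243 to 7928 in ex-iTreg minus nTreg (8558) and 3420 to 5380 in iTreg minus nTreg (6826). With no filter, Smad3 and Smad7 were not called in iTreg minus nTreg (adjusted p = 0.14 and 0.0752, limma) nor Smad3 in ex-iTreg minus iTreg (0.0689), where more probe sets are tested. The mean of tested probe sets removed the Ski call in ex-iTreg minus iTreg (0.08, adjusted p = 0.324) and added Tgfb1 and Tgfbr2 in iTreg minus nTreg (-0.27 and -0.25, adjusted p = 0.0213 and 0.0445, limma) and Smad7 in ex-iTreg minus nTreg (0.30, adjusted p = 0.00641). An intensity trend in limma added Tgfbr2 in iTreg minus nTreg and for ex-iTreg against nTreg arrays Smad7 and Ski (adjusted p = 0.0299, 0.0322 and 0.0142).

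The pools share only a number, and pool 1 deviations correlated between groups with r of -0.01, -0.04 and -0.09 across probe sets. With the replicate block, 8011 probe sets were called in ex-iTreg minus iTreg, 7814 in ex-iTreg minus nTreg and 5853 in iTreg minus nTreg, and 9, 7 and 5 of the genes. Only the Smad3 call in iTreg minus nTreg was lost with the block (adjusted p = 0.075, limma).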
